A study of Saccharomyces cerevisiae with 24 samples.

Results

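The yeast strains described here carry the E85Q allele of DIM1, and they are set against wild-type DIM1 (WT) while growing in medium with 1 mM methionine. The data are 8 of the 24 samples of the series: mRNA and ribosome footprint libraries of the E85Q strains numbered 623 and 625, and of the WT strains numbered 172 and 600. All strains are Saccharomyces cerevisiae of the CEN.PK background, were in log phase in a sulfur-free medium to which the methionine had been added, and were collected by fast filtration and freezing. The other samples are E85Q and WT after 2 h without a sulfur source, and D87E strains (887 and 888) in both media; with methionine D87E stands beside E85Q as a second allele, changed at residue 87. In E85Q the glutamate at residue 85 of the protein is replaced by glutamine. The mRNA and footprint libraries of a sample came from the same culture, and each genotype is represented by 2 numbered strains. How the alleles were introduced, whether the 2 strains of a genotype were built separately, and how much methylation each allele leaves are not given in the labels, so the allele and any other difference shared by both E85Q strains cannot be told apart.

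Dim1 is a conserved methyltransferase that dimethylates a pair of neighbouring adenosines close to the 3′ end of 18S rRNA, the RNA of the small (40S) ribosomal subunit, and it also takes part in the processing of the rRNA precursor. The methyl groups come from S-adenosylmethionine, which the cell makes from methionine. Ribosome profiling sequences the short mRNA pieces that ribosomes protect from nuclease. Set beside the mRNA level of the same culture, it shows how densely the messages of a gene are occupied by ribosomes. Genes that cells translate under special control in yeast include GCN4, whose message carries short reading frames upstream of the coding sequence that hold back its translation while amino acids are plentiful, and CPA1, whose upstream reading frame encodes a peptide that stalls ribosomes when arginine is plentiful.

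Levels are RPKM, the reads of a gene divided by its length in kilobases and by the reads of the library in M (1e6). Differences are E85Q minus WT on the log2(RPKM + 1) scale, which understates changes of weakly expressed genes. Translational efficiency (TE) is the log2 footprint value minus the log2 mRNA value of a sample. A gene was called when its Benjamini-Hochberg adjusted p over 4888 genes was below 0.05 in limma, and "rose" or "fell" below means called, higher or lower in E85Q than in WT. Adjusted p-values throughout are from limma, each with its standard error (SE) where given. The libraries rested on 30.7 and 27.4 M reads of mRNA in E85Q and 32.2 and 24.3 M in WT, and on 49.1 and 52.6 M footprint reads in E85Q and 53.5 and 57.5 M in WT. A gene of 1 kb with 3 reads would have an RPKM of 0.0933 to 0.1235 in mRNA and 0.0522 to 0.0611 in footprints, which covers counting error only. Across genes, the 2 E85Q libraries had a Pearson correlation of 0.997 in mRNA and 0.997 in footprints, and the 2 WT libraries 0.996 and 0.998. With 2 samples a group an exact permutation test of a single value cannot go below p = 0.33, so single genes rest on the spread that limma pools over all groups. The genes with the largest changes were taken from called genes whose groups do not overlap, so a lack of overlap at these is part of the choice and adds no support. A lack of overlap was also common over all genes. Both E85Q libraries lay above both WT libraries at 54.0% of genes in mRNA and below them at 17.4%. In footprints these shares were 41.7% and 23.5%.

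The mRNA of E85Q cells differed from WT at 1396 of 4888 genes (28.6%), with 1093 higher (22.4%) and 303 lower (6.2%). Footprints differed at 372 genes (7.61%), 199 higher (4.07%) and 173 lower (3.54%), and TE at 7 genes (0.143%), 1 higher (0.0205%) and 6 lower (0.123%). The median of all mRNA differences was 0.112, so many of the higher mRNA calls were small. After each library was centred on its median, 985 genes were called in mRNA (20.2%), 315 higher (6.44%) and 670 lower (13.7%), and 315 rises and 303 falls were called under both scalings. For that reason list medians below have the median over all genes subtracted, as relative medians (0.112 for mRNA, 0.052 for footprints, -0.055 for TE). Centred mRNA counts stand beside the counts as deposited for most lists. For single amino acid pathways and most footprint counts only the counts as deposited are given. Centring changed some of these, and histidine genes had 4 mRNA falls as deposited and 6 centred. Falls were the larger changes: in mRNA 4 genes rose and 15 fell by at least 2-fold, and in footprints 4 and 19. In both assays 123 genes fell, 71.1% of the footprint list and 40.6% of the mRNA list, and 157 rose, 78.9% and 14.4% of those lists. The number called in opposite directions was 0.

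**Figure D1:**
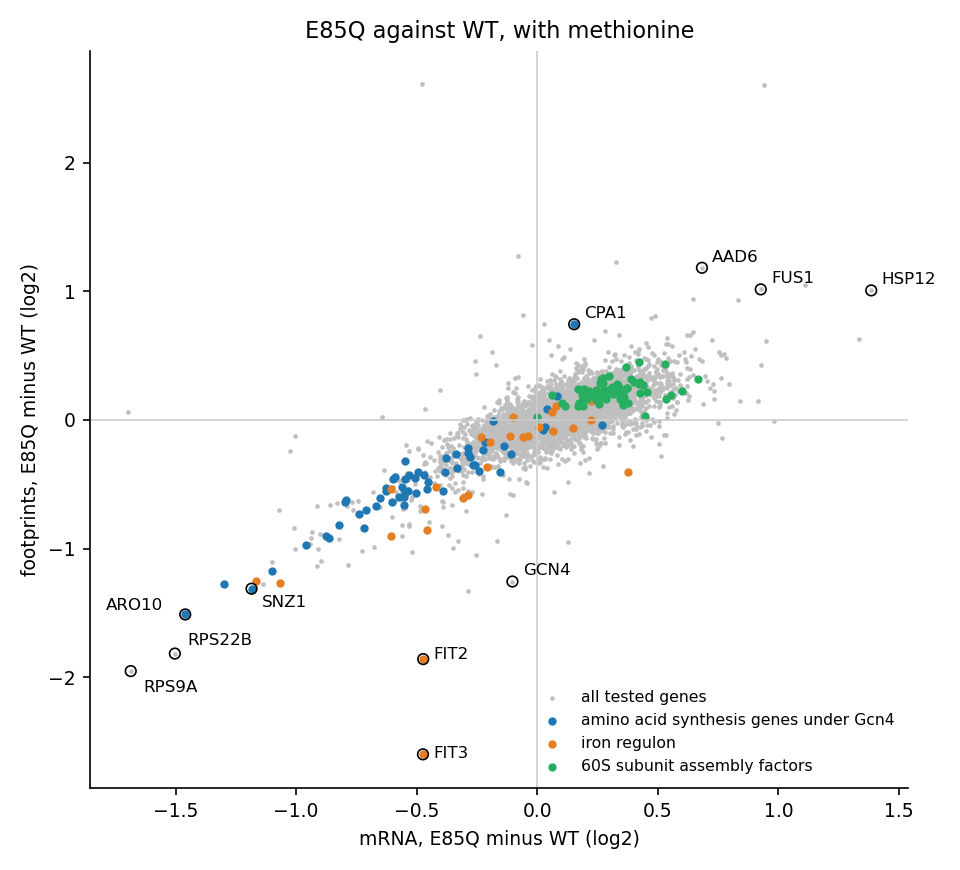
E85Q minus WT in mRNA (horizontal) and in footprints (vertical) for all tested genes with methionine, both on the log2(RPKM + 1) scale and each value from 2 samples a group. Amino acid synthesis genes under Gcn4 (blue) lie mostly at lower left and 60S assembly factors (green) a little to the upper right; GCN4, FIT2, FIT3 and CPA1 lie away from the diagonal. COS1, listed at 0 in the mRNA of both WT libraries, is left out.

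D87E stood much closer to WT in the same medium in mRNA and footprints, while it had as many TE calls as E85Q. D87E minus WT gave 0 calls in mRNA in limma (207 genes, 4.23%, had an unadjusted p below 0.05), 3 in footprints (0.0614%) and 7 in TE (0.143%), all lower. E85Q minus D87E, the test of the difference between the alleles, called 646 genes higher (13.2%) and 217 lower (4.44%) in mRNA, and 91 higher (1.86%) and 132 lower (2.7%) in footprints. The comparisons of each mutant with WT share the same WT libraries.

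DIM1 itself (YPL266W, chromosome XVI, 39121 to 40077 in the R64 annotation) was present in every library. Its mRNA was 92.1 and 91.2 RPKM in E85Q and 78.0 and 77.4 RPKM in WT. Both E85Q values lay above both WT values, a difference of 0.24 (SE 0.06, adjusted p = 0.023) that was 0.11 after centring (adjusted p = 0.29) and was not called with any 1 library left out (adjusted p of 0.057 to 0.12). Over all genes, 54.0% had both E85Q mRNA values above both WT values. DIM1 footprints were 85.7 and 86.6 RPKM in E85Q and 74.5 and 74.3 RPKM in WT (0.21, adjusted p = 0.31). RPKM cannot show which allele the reads carry. Next to DIM1, the mRNA of ACM1, an inhibitor of the anaphase-promoting complex, differed by 0.22 (adjusted p = 0.037) and that of DIP5, a permease for acidic amino acids, by -0.19 (adjusted p = 0.016), a call that held in 1 of 4 fits with a library left out (adjusted p up to 0.08). YPL264C differed by -0.40 in mRNA (adjusted p = 0.051) and by -0.36 in footprints (adjusted p = 0.0085). PLC1 was below the level tested in footprints.

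GCN4 (YEL009C, chromosome V, 138918 to 139763), the activator of amino acid synthesis, had fewer footprints in E85Q, with an mRNA difference that was not called. Its mRNA was 1200.4 and 1166.4 RPKM in E85Q and 1283.4 and 1258.4 RPKM in WT, a difference of -0.10 (SE 0.10, adjusted p = 0.45). Its footprints were 117.1 and 116.3 RPKM in E85Q and 294.1 and 266.5 RPKM in WT. The footprint groups did not overlap: E85Q held 41.6% of the WT mean, a difference of -1.26 (SE 0.32, adjusted p = 0.042). Footprints per mRNA, each as RPKM + 1, were 0.0983 and 0.1 in E85Q and 0.23 and 0.212 in WT. The TE difference, -1.15 (SE 0.25), was not called (adjusted p = 0.15). D87E had 239.5 and 240.7 RPKM of GCN4 footprints, and E85Q minus D87E was -1.03 (adjusted p = 0.095). Leaving out any of the 4 libraries ended the footprint call (adjusted p of 0.15 to 0.23), while the difference stayed between -1.33 and -1.18.

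PCL5, the cyclin that with the kinase Pho85 marks the Gcn4 protein for degradation and whose gene Gcn4 activates, fell in both assays. Its mRNA was 144.5 and 162.7 RPKM in E85Q and 255.3 and 237.1 RPKM in WT (-0.68, SE 0.11, adjusted p = 0.004). PCL5 footprints were 21.1 and 21.2 RPKM in E85Q and 43.5 and 42.6 RPKM in WT (-0.99, SE 0.16, adjusted p = 0.0093). Neither assay had overlapping groups, and PCL5 was also lower in E85Q than in D87E (-0.49 in mRNA, adjusted p = 0.017; -0.83 in footprints, adjusted p = 0.021). Of the 17 tested genes of the list for Gcn4 and its translational control, which holds the kinase Gcn2, its activators and the subunits of initiation factors eIF2 and eIF2B, mRNA rose at 3 (22.4% of all genes), GCN5, GCD1 and GCD7, by 0.20 to 0.27, and none of these rises was called after centring. PCL5 was the only member whose mRNA fell, and PCL5 and GCN4 the only members whose footprints fell (3.54% of all genes did); those of GCD1 rose by 0.22 (4.07%). The PCL5 footprint call was lost with any 1 library left out (adjusted p of 0.053 to 0.09), and its mRNA call was not.

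**Figure D2:**
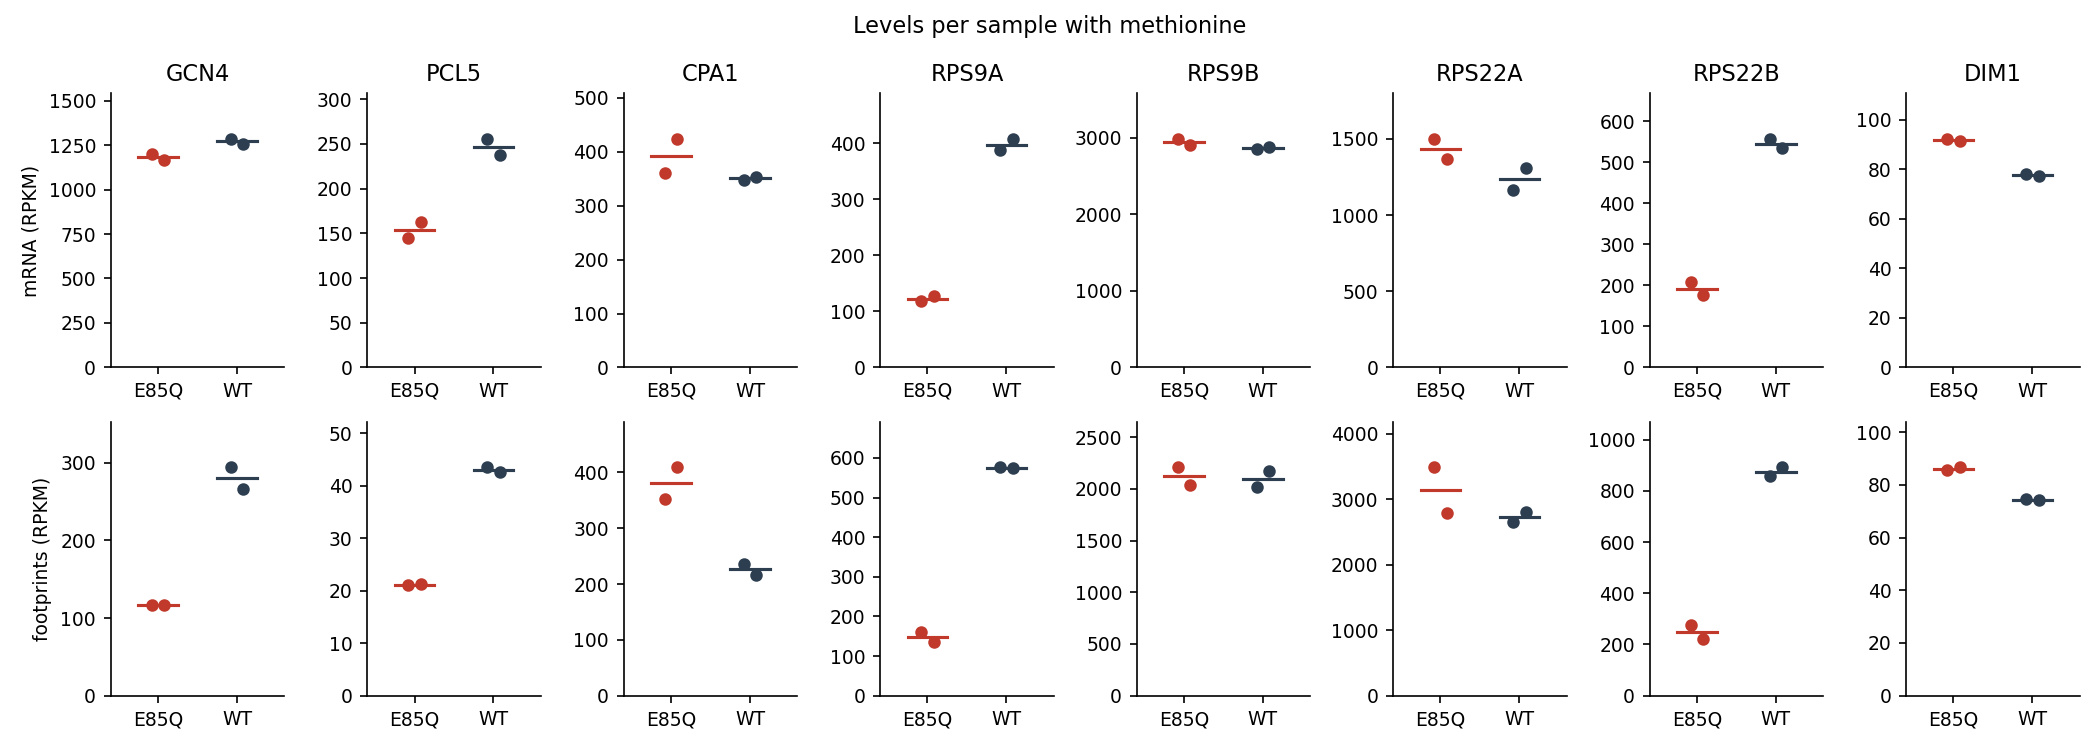
RPKM of 8 genes in each sample with methionine, mRNA above and footprints below; points are samples (E85Q left, WT right), bars are means, and each axis starts at 0. GCN4 differs in footprints with nearly equal mRNA, PCL5, RPS9A and RPS22B are lower in E85Q in both assays, and CPA1 is higher in footprints.

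CPA1 (YOR303W, chromosome XV, 882899 to 884134), the small subunit of the carbamoyl phosphate synthetase of arginine synthesis, had more footprints in E85Q. Its mRNA was 359.9 and 423.6 RPKM in E85Q and 348.4 and 353.6 RPKM in WT (0.15, SE 0.09, adjusted p = 0.23). Its footprints were 351.7 and 409.1 RPKM in E85Q and 236.2 and 216.3 RPKM in WT, 1.68 times higher in E85Q, with no overlap (0.74, SE 0.11, adjusted p = 0.0057). CPA1 was the only gene whose TE rose: footprints per mRNA were 0.977 and 0.966 in E85Q and 0.679 and 0.613 in WT (0.59, SE 0.09, adjusted p = 0.043). D87E had 253.7 and 233.4 RPKM of CPA1 footprints, and E85Q minus D87E was 0.64 (adjusted p = 0.015). The TE call lies near its threshold: it held in 9 of 18 alternative settings, whose adjusted p ran between 0.021 and 0.38, and was lost without E85Q 623, E85Q 625 or WT 600. The footprint call was lost without WT 600 (adjusted p = 0.063). Of 13 tested genes whose messages have a characterised upstream reading frame, CPA1 was the only one called in TE (0.0205% of all genes rose in TE and 0.123% fell).

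Genes of amino acid synthesis that Gcn4 activates were mostly lower in E85Q in both assays. The list also holds the vitamin B6 genes SNZ1 and SNO1, and ARO9 and ARO10 of aromatic amino acid breakdown. All of these fell in both assays and count among the falls. Of 58 tested, 39 fell in mRNA (6.2% of all genes did) and 0 rose (0 also at an unadjusted p below 0.05), and their relative median was -0.63. In footprints 25 fell (3.54% of all genes did), and CPA1 alone rose (4.07%). Their footprint median was -0.51 relative to all genes. The median TE was 0.05 above that of all genes. After centring, 45 fell in mRNA (13.7% of all genes did). For the same genes D87E minus WT had relative medians of -0.09 in mRNA and -0.07 in footprints. E85Q minus D87E had relative medians of -0.54 and -0.45, with 30 members lower and 1 higher in mRNA (4.44% and 13.2% of all genes) and 16 lower and 1 higher in footprints (2.7% and 1.86%). The number of falls depended on the libraries. Leaving out any 1 library lowered it in both assays, in mRNA most without E85Q 623. The number of falls over all genes dropped in these fits as well, in mRNA also most without E85Q 623.

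Of the arginine genes, 7 of 9 fell in mRNA and 7 in footprints, with relative medians of -0.83 and -0.87. For comparison with this and the next pathways, 6.2% of all genes fell in mRNA and 3.54% in footprints. ARG1, argininosuccinate synthetase, had mRNA of 666.3 and 882.0 RPKM in E85Q and 1558.1 and 1427.6 RPKM in WT (-0.96, SE 0.22, adjusted p = 0.012), and its footprints fell by 0.97 (SE 0.24, adjusted p = 0.04). Every E85Q value lay below every WT value. ARG7 (-0.86), which makes ornithine, and ARG5,6 (-0.82), which encodes 2 enzymes earlier in that branch, fell in mRNA as well. The ARG1 mRNA call was lost in 2 of 4 fits with a library left out (adjusted p up to 0.11).

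In histidine synthesis 4 of 7 genes fell in mRNA and 2 in footprints. HIS4, which carries several steps of the pathway in a single protein, had mRNA of 406.7 and 489.2 RPKM in E85Q and 773.9 and 717.0 RPKM in WT (-0.74, SE 0.15, adjusted p = 0.0082), with no overlap, and -0.73 in footprints. In lysine synthesis 4 of 9 fell in mRNA and 1 in footprints, led in mRNA by LYS20 (-0.67), a homocitrate synthase, and LYS1 (-0.63), saccharopine dehydrogenase. For leucine, isoleucine and valine it was 6 of 12 in mRNA and 3 in footprints. Among these ILV6, the regulatory subunit of acetolactate synthase, had -0.80 in mRNA and -0.64 in footprints, and LEU4, an isopropylmalate synthase, had -0.60 in mRNA. HIS4 lost its mRNA call in 1 of 4 fits with a library left out (adjusted p up to 0.08).

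Aromatic amino acid genes had 11 falls among 15 in mRNA and 9 in footprints, with relative medians of -0.68 and -0.62. TRP5, tryptophan synthase, fell by 0.80 in mRNA and by 0.62 in footprints. ARO7, chorismate mutase, rose by 0.22 in mRNA but not after centring (adjusted p = 0.31). The largest falls in the group were at ARO10 and ARO9, which are known for the breakdown of aromatic amino acids and as targets of the activator Aro80. ARO10, a decarboxylase, had mRNA of 8.6 and 6.93 RPKM in E85Q and 24.4 and 21.7 RPKM in WT (-1.46, SE 0.33, adjusted p = 0.012), and -1.51 in footprints. ARO9, an aminotransferase, had mRNA of 15.3 and 15.0 RPKM in E85Q and 35.9 and 31.4 RPKM in WT (-1.10, SE 0.24, adjusted p = 0.011), and -1.17 in footprints. E85Q lay below WT in all samples of both genes. With a library left out, the ARO10 mRNA call held in 1 of 4 fits (adjusted p up to 0.069) and that of ARO9 in 2 (up to 0.075), while TRP5 held in all 4.

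Serine, glycine and threonine genes fell at 7 of 12 in mRNA and 4 in footprints, and both asparagine synthetases, ASN1 (-0.55) and ASN2 (-0.33), fell in mRNA but in footprints neither did. In the proline, glutamate and glutamine group 2 of 6 fell in mRNA, and in footprints none was called. Vitamin B6 genes had larger changes than most amino acid genes. SNZ1, a subunit of the enzyme that makes pyridoxal phosphate, had mRNA of 232.2 and 224.5 RPKM in E85Q and 551.0 and 491.6 RPKM in WT (-1.19, SE 0.11, adjusted p = 0.00046), and -1.31 in footprints (SE 0.13, adjusted p = 0.00098). D87E was at the WT level of SNZ1 mRNA, 552.0 and 487.8 RPKM. SNO1, its partner subunit, had mRNA of 37.9 ± 3.02 RPKM in E85Q and 94.5 ± 4.97 RPKM in WT (mean ± SD, n = 2 each; -1.30, SE 0.11, adjusted p = 0.00029), and -1.28 in footprints. Among 22 cytosolic aminoacyl-tRNA synthetases 5 fell in mRNA (6.2% of all genes did), 11 after centring (13.7%), with a relative median of -0.24. In footprints 2 of them fell (3.54% of all genes).

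**Figure D3:**
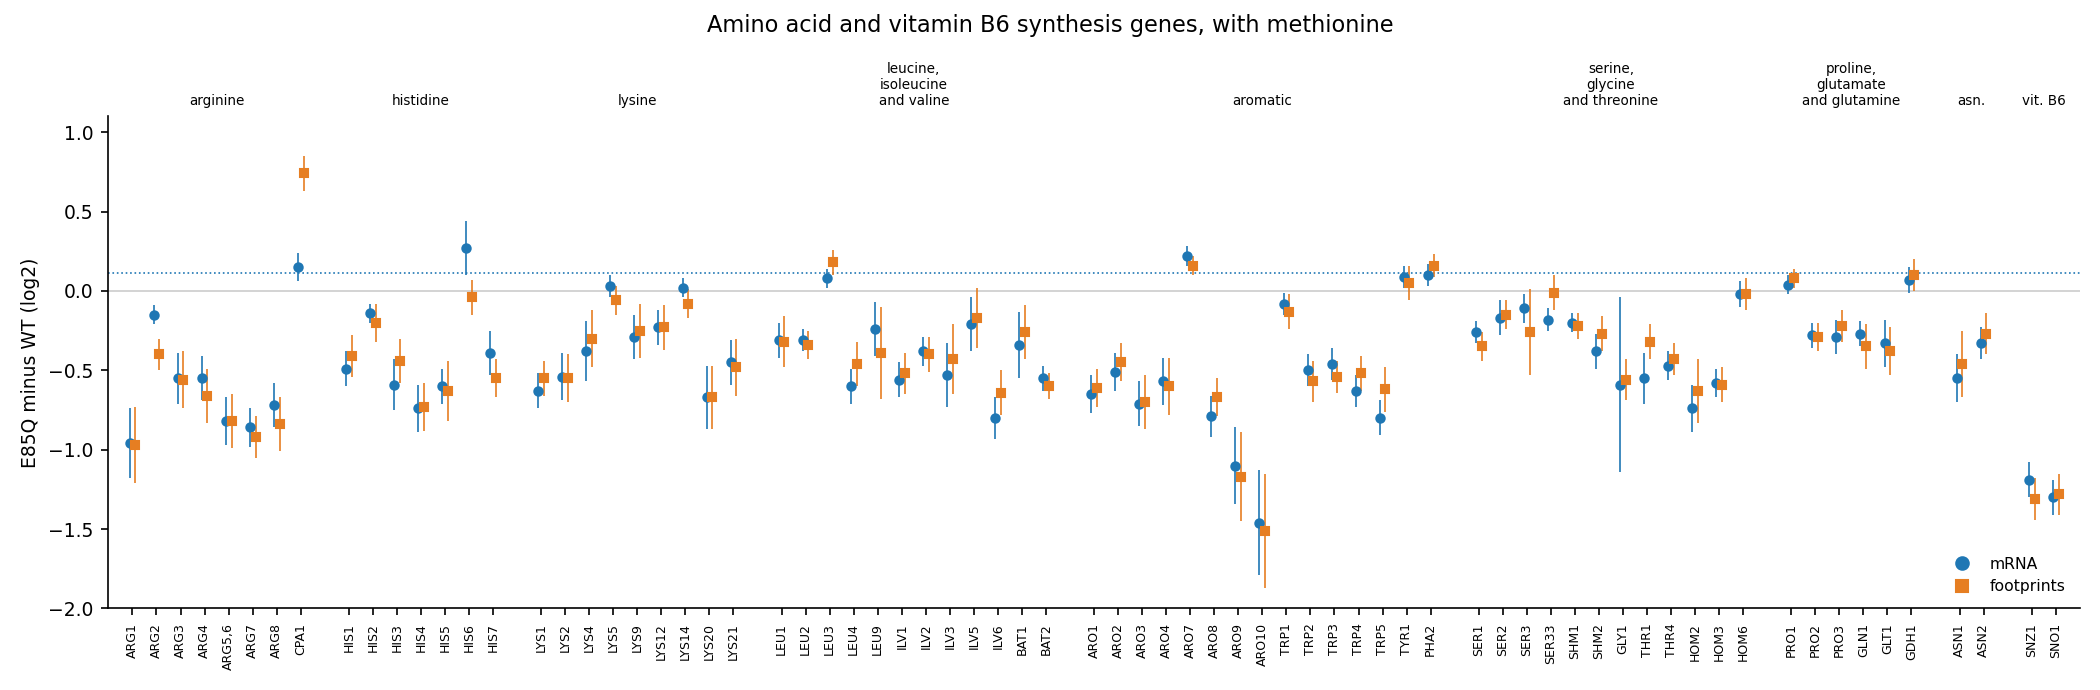
E85Q minus WT in mRNA (blue) and footprints (orange) for tested genes of amino acid and vitamin B6 synthesis. ARO9 and ARO10, of aromatic amino acid breakdown, are drawn with them. The scale is log2(RPKM + 1), with SE bars from limma (2 samples a group). The dotted line is the median of all genes in mRNA, 0.112. Most genes lie below both lines in both assays, ARO10, SNO1 and SNZ1 lowest, and CPA1 lies above them in footprints.

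Of the ribosomal proteins, a pair of small-subunit genes fell strongly. RPS9A (YPL081W, chromosome XVI, 404950 to 406044) had mRNA of 118.7 and 127.3 RPKM in E85Q and 388.2 and 407.4 RPKM in WT (-1.69, SE 0.25, adjusted p = 0.003). Its footprints were 160.4 and 136.4 RPKM in E85Q and 576.0 and 573.7 RPKM in WT (-1.95, SE 0.34, adjusted p = 0.013). The groups stood far apart in both assays, and D87E had 407.7 and 421.6 RPKM of mRNA, close to WT (E85Q minus D87E -1.75, adjusted p = 0.0042). RPS22B (YLR367W, chromosome XII, 856442 to 857317) had mRNA of 208.2 and 176.2 RPKM in E85Q and 556.3 and 533.6 RPKM in WT (-1.50, SE 0.25, adjusted p = 0.0044). RPS22B footprints were 275.7 and 222.9 RPKM in E85Q and 858.2 and 891.6 RPKM in WT (-1.82, SE 0.27, adjusted p = 0.0063). D87E was again near WT, with 623.1 and 538.5 RPKM of RPS22B mRNA (E85Q minus D87E -1.59, adjusted p = 0.0055). Both genes are intron-bearing, and each encodes nearly the same protein as a second gene, so reads may be split between the copies and the values are uncertain to that extent. With a library left out, both mRNA calls held in all 4 fits, the RPS9A footprint call in none (adjusted p of 0.074 to 0.1) and that of RPS22B in 2 (up to 0.056).

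The second copies of both genes were not called in either assay. RPS9B had mRNA of 2984.7 and 2908.2 RPKM in E85Q and 2852.8 and 2876.3 RPKM in WT, and footprints of 2207.8 and 2038.3 RPKM in E85Q and 2021.3 and 2175.2 RPKM in WT (differences of 0.04 and 0.02). RPS22A had mRNA of 1498.3 and 1366.3 RPKM in E85Q and 1162.1 and 1310.5 RPKM in WT (0.21, adjusted p = 0.57), and footprints of 3488.3 and 2786.8 RPKM in E85Q and 2657.4 and 2805.8 RPKM in WT (0.19). In mRNA the E85Q values of RPS9B and RPS22A lay above those of WT, as at 54.0% of all genes. Neither difference passed the test, and that of RPS9B, 0.04, was below the median of all genes (0.112). In footprints the groups overlapped. Of 54 tested 40S ribosomal protein genes only RPS9A and RPS22B fell, in either assay (6.2% of all genes fell in mRNA and 3.54% in footprints). RPS17A (0.54) and RPS17B (0.49), also a near-identical pair, rose in mRNA but not after centring. Of 74 tested 60S genes 0 were called in either assay in limma, where 28.6% of all genes were in mRNA and 7.61% in footprints. At an unadjusted limma p below 0.05 there were 2 in mRNA and 2 in footprints (43.4% and 25.4% of all genes). The 40S proteins together took 14.1 and 13.9% of the summed mRNA RPKM in E85Q and 13.2 and 13.7% in WT, and 14.1 and 13.8% of that of footprints in E85Q and 12.9 and 13.3% in WT.

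Genes for the machinery that builds ribosomes, to which Dim1 belongs, lay slightly above the median of all genes in mRNA. Of 52 genes of the small-subunit processome and 18S rRNA maturation 25 rose (22.4% of all genes), 9 after centring (6.44%), and 0 fell, also at an unadjusted p below 0.05; the relative median was 0.17. SAS10 (0.72), UTP30 (0.56), BFR2 (0.55) and UTP23 (0.54), all parts of early pre-ribosomes, had the largest rises. Of these, SAS10 was not called after centring. Of 66 assembly factors of the 60S subunit 38 rose, 10 after centring, with a relative median of 0.20. MAK16, a nucleolar 60S factor, had mRNA of 51.4 and 45.8 RPKM in E85Q and 34.5 and 26.4 RPKM in WT (0.67), with no overlap; LOC1 followed with 0.60. Of 19 late factors of the pre-40S particle 12 rose, 4 after centring, with a relative median of 0.14. BUD23, the methyltransferase that modifies a guanosine of 18S rRNA, had mRNA of 28.7 and 29.4 RPKM in E85Q and 19.2 and 17.8 RPKM in WT (0.62), and its footprint difference was 0.26 (adjusted p = 0.21). LTV1, needed for maturation of the 40S head, rose by 0.56.

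Footprints of these lists showed fewer calls, 10 of 52, 5 of 66 and 2 of 19 members, all higher (4.07% of all genes were), with relative medians of 0.18, 0.16 and 0.14. After centring the footprint calls were 1, 3 and 1 (2.03% of all genes were higher). With any 1 library left out almost no footprint rise remained in these lists, and few remained over all genes. The mRNA counts changed with the library left out. Rises in the processome, 60S and late pre-40S lists were fewer with any 1 library left out, as was so over all genes. They were fewest without E85Q 623 or WT 600. In either of these fits a smaller share of the 60S list rose than of all genes. The same held for the processome list without E85Q 623. The mRNA calls of MAK16 and BUD23 each held in 2 of 4 such fits (adjusted p up to 0.14 and 0.065). D87E minus WT had relative medians of 0.10, 0.12 and 0.07 for the same lists in mRNA, and E85Q minus D87E called 5 of 52, 6 of 66 and 3 of 19 members, all higher, where 13.2% of all genes were. Among 33 subunits and factors of RNA polymerases I and III 15 rose (22.4% of all genes did), 2 after centring (6.44% of all genes), led by RRN3 (0.61), the initiation factor of polymerase I. Of 30 enzymes that modify rRNA and tRNA 6 rose, a share near that of all genes (22.4%), and 5 after centring (6.44% of all genes). TSR3, which adds an aminocarboxypropyl group to 18S rRNA, had mRNA of 31.3 and 28.8 RPKM in E85Q and 19.3 and 15.7 RPKM in WT (0.75, with 0.53 in footprints), and NCS2, of the tRNA thiolation pathway, rose by 0.63.

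**Figure D4:**
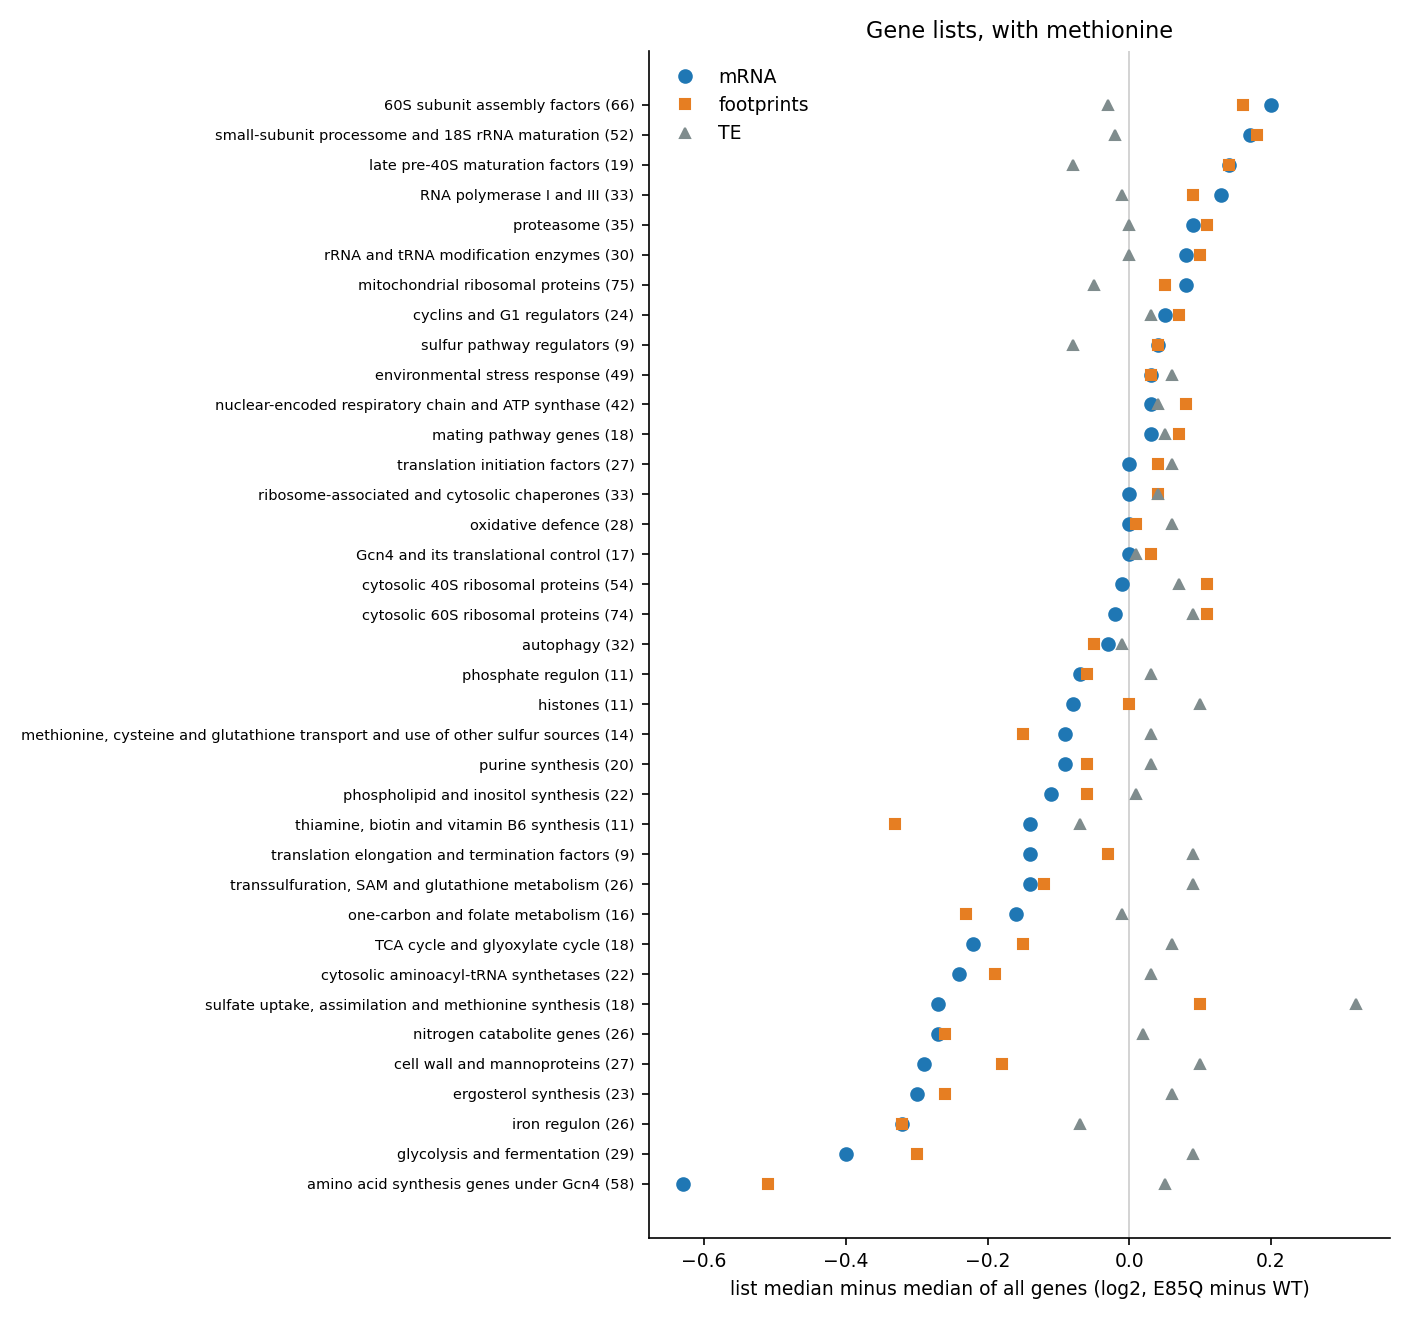
Median E85Q minus WT difference of the gene lists with 9 or more tested members, single amino acid pathways not drawn, with the median over all genes subtracted, in mRNA (circles), footprints (squares) and TE (triangles); the number of tested members is in brackets. Of the lists drawn, amino acid synthesis genes under Gcn4 lie lowest, at -0.63 in mRNA and -0.51 in footprints, and the 60S assembly factors highest in mRNA, at 0.20.

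Genes of iron uptake, most of them targets of the activators Aft1 and Aft2, were lower in E85Q. Of 26 tested, 12 fell in mRNA (6.2% of all genes did), 14 after centring (13.7%), and 2 rose (22.4%). The relative median was -0.32, and 11 fell in footprints (3.54% of all genes). TIS11, an RNA-binding protein that speeds the decay of messages for iron-using proteins, had mRNA of 5.13 and 3.67 RPKM in E85Q and 10.2 and 11.8 RPKM in WT (-1.17, SE 0.13, adjusted p = 0.0012). SIT1, a siderophore transporter, had mRNA of 10.9 and 10.3 RPKM in E85Q and 22.5 and 24.1 RPKM in WT (-1.07, SE 0.10, adjusted p = 0.00044). Both E85Q values were lower than both WT values at each gene, and the footprint differences were -1.25 at TIS11 and -1.27 at SIT1. FET3, the copper oxidase of iron uptake, had mRNA of 113.5 and 122.5 RPKM in E85Q and 172.2 and 188.1 RPKM in WT (-0.61), and ARN1, another siderophore transporter, had -0.61 too. E85Q was also below D87E. In mRNA 8 members were lower and 1 higher (4.44% and 13.2% of all genes), and in footprints 8 were lower (2.7%). The rises at AFT2 and ISU2, both 0.22, were not called after centring. With any single library left out, fewer members fell in both assays, as was so over all genes.

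The lowest footprint values of the iron list, at FIT3 and FIT2, cell wall mannoproteins that hold siderophores, stood beside far higher values in the starved WT libraries. FIT3 footprints were 3.36 and 1.24 RPKM in E85Q and 12.1 and 26.3 RPKM in WT (-2.60, SE 0.37, adjusted p = 0.0057), and D87E was as low as E85Q, with 2.41 and 1.5 RPKM. FIT2 footprints were 7.88 and 5.52 RPKM in E85Q and 19.3 and 36.6 RPKM in WT (-1.86), with 8.58 and 8.29 RPKM in D87E. In mRNA both genes differed by -0.47. The FIT2 footprint call held in 2 of 4 fits with a library left out (adjusted p up to 0.06). After starvation the footprint libraries held 81.9 and 56.4 RPKM of FIT3 in E85Q and 3902.4 and 4650.0 RPKM in WT, and for FIT2 it was 78.0 and 45.4 RPKM in E85Q and 3952.3 and 4381.9 RPKM in WT. SUL1, a sulfate transporter that is nearly silent with methionine, had footprints with methionine that were 0.497 and 1.14% of the starved value in E85Q, 0.105 and 0.0446% in D87E, and 0.297 and 0.657% in WT. In mRNA that share was 0.0547 to 0.0768% in these 6 samples. When each starved footprint library, scaled by that share, was subtracted from the library of the same strain with methionine, an alternative chosen after seeing the data, FIT3 came out at 1.04 (adjusted p = 0.099), FIT2 at -0.28, TIS11 at -1.01 and SIT1 at -1.22, and 10 members still fell in footprints.

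Of the 6 genes whose TE fell, FIT3 is one (-2.12, adjusted p = 0.041; 1.51 after the subtraction). CHA1, the deaminase that breaks down serine and threonine, had mRNA of 5.3 and 4.58 RPKM in E85Q and 5.05 and 3.88 RPKM in WT, and footprints of 3.3 and 3.28 RPKM in E85Q and 7.39 and 7.15 RPKM in WT. The mRNA groups overlapped and the footprint groups did not, which gave a TE difference of -1.07 (SE 0.11, adjusted p = 0.0079), and -0.95 after the subtraction. DUR1,2, urea amidolyase, had mRNA of 10.2 and 10.4 RPKM in E85Q and 13.9 and 12.5 RPKM in WT, and footprints of 2.89 and 3.04 RPKM in E85Q and 6.55 and 6.69 RPKM in WT. Its TE differed by -0.61 (SE 0.08, adjusted p = 0.024), and both genes were also below D87E in TE, CHA1 by 0.66 (adjusted p = 0.032) and DUR1,2 by 0.60 (adjusted p = 0.021). These values rest on 170 and 181 CHA1 footprint reads in E85Q and 415 and 431 in WT, and on 776 and 875 DUR1,2 footprint reads in E85Q and 1918 and 2103 in WT.

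MAL11, a maltose permease, had footprints of 8.8 and 6.71 RPKM in E85Q and 13.0 and 18.9 RPKM in WT, with a TE difference of -0.77 (SE 0.12, adjusted p = 0.045). MOH1, of unknown function, had -0.61 in TE (adjusted p = 0.044). NIT1, a nitrilase, had -0.80 in TE (adjusted p = 0.042); D87E minus WT was -0.79 (adjusted p = 0.026) and E85Q minus D87E was -0.01. The number of TE calls was 0 without WT 600 and 20 without WT 172. With a library left out, the TE call of CHA1 held in 3 of 4 fits, those of FIT3 and NIT1 in 2 each (adjusted p up to 0.37), and those of DUR1,2, MAL11 and MOH1 in 1 each.

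CHA1 and DUR1,2 belong to the breakdown of nitrogen compounds, and the list of nitrogen catabolite genes was low in mRNA too. Of 26 tested, 10 fell (6.2% of all genes did), 14 after centring (13.7%), with a relative median of -0.27. In footprints 8 fell (3.54% of all genes). CAR2, ornithine transaminase of arginine breakdown, had mRNA of 21.3 and 21.4 RPKM in E85Q and 34.9 and 38.9 RPKM in WT (-0.76), and CAR1, arginase, had -0.42. The permeases MEP2, for ammonium, and GAP1, for amino acids, had -0.56 and -0.41. MEP2 footprints were 8.39 and 7.45 RPKM in E85Q and 15.7 and 15.6 RPKM in WT (-0.90, SE 0.09, adjusted p = 0.00092), with no overlap.

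Genes of sulfate uptake, assimilation and methionine synthesis, which are repressed while methionine is present, were partly lower in E85Q. Of 18, 8 fell in mRNA (6.2% of all genes did), 9 after centring (13.7%), with a relative median of -0.27. MET14 alone rose, but not after centring. MET17, which makes homocysteine, had mRNA of 53.6 and 58.7 RPKM in E85Q and 117.9 and 112.5 RPKM in WT (-1.03, SE 0.09, adjusted p = 0.00029); its annotation overlaps that of another gene. MET13, methylenetetrahydrofolate reductase, had mRNA of 82.0 and 99.8 RPKM in E85Q and 170.3 and 172.2 RPKM in WT (-0.91), and -0.67 in footprints. E85Q lay below WT in every sample of both. STR3, cystathionine beta-lyase, had mRNA of 2.91 and 3.58 RPKM in E85Q and 8.0 and 7.02 RPKM in WT (-1.01). It belongs to another list, that of transsulfuration, S-adenosylmethionine and glutathione metabolism. Of its 26 tested members 7 fell and 3 rose in mRNA (6.2% and 22.4% of all genes), with a relative median of -0.14. After centring 9 fell and 1 rose (13.7% and 6.44% of all genes). In footprints 4 of the 18 sulfate and methionine genes fell (3.54% of all genes did). Their relative median was 0.10, but -0.27 after the subtraction described above. With a library left out the footprint falls were fewer, as was so over all genes, and the relative medians ran from -0.11 to 0.32. MET17 footprints were 179.5 and 297.6 RPKM in E85Q and 260.1 and 286.2 RPKM in WT, an overlap (-0.24; -1.07 after the subtraction).

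Genes of central carbon metabolism were lower in mRNA. Of 29 genes of glycolysis and fermentation 13 fell (6.2% of all genes did), 17 after centring (13.7%), and 1 rose, with a relative median of -0.40. In footprints 5 fell and 1 rose (3.54% and 4.07% of all genes). ADH5, an alcohol dehydrogenase, had mRNA of 30.5 and 37.2 RPKM in E85Q and 80.8 and 70.2 RPKM in WT (-1.14, SE 0.12, adjusted p = 0.00088), and -1.27 in footprints. TDH2, glyceraldehyde-3-phosphate dehydrogenase, had mRNA of 1594.1 and 1635.5 RPKM in E85Q and 2354.0 and 2536.4 RPKM in WT (-0.60), but its footprints were not called (-0.52, adjusted p = 0.16). The gene that rose was ALD4, mitochondrial aldehyde dehydrogenase, with mRNA of 106.3 and 95.7 RPKM in E85Q and 69.4 and 69.4 RPKM in WT (0.53). Groups did not overlap at any of these 3 genes. Fewer members fell with any single library left out, as was so over all genes. In the TCA and glyoxylate cycles 6 of 18 fell in mRNA (6.2% of all genes), 10 after centring (13.7%). The largest fall was at IDP1, mitochondrial isocitrate dehydrogenase, with 388.6 and 389.6 RPKM in E85Q and 653.8 and 671.7 RPKM in WT (-0.77).

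Genes of ergosterol synthesis and of the cell wall were lower in mRNA as well. Of 23 ergosterol genes 10 fell in mRNA (6.2% of all genes did), 19 after centring (13.7%), and 1, ERG8, rose. The relative median was -0.30, and 6 fell in footprints (3.54% of all genes). ERG1, squalene epoxidase, had mRNA of 208.4 and 214.6 RPKM in E85Q and 289.6 and 263.8 RPKM in WT (-0.38), and footprints of 262.2 and 267.8 RPKM in E85Q and 402.0 and 380.1 RPKM in WT (-0.56). Of 27 cell wall genes 10 fell in mRNA (6.2% of all genes), 16 after centring (13.7%). PIR3 had -1.10 in mRNA, and CWP1, another wall mannoprotein, had mRNA of 21.6 and 20.9 RPKM in E85Q and 42.4 and 40.6 RPKM in WT (-0.93, SE 0.08, adjusted p = 0.00029).

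The genes that rose most formed no single group. HSP12, a membrane-associated stress protein, had mRNA of 322.0 and 216.7 RPKM in E85Q and 95.1 and 106.3 RPKM in WT (1.38, SE 0.28, adjusted p = 0.0084), and footprints of 423.9 and 304.7 RPKM in E85Q and 157.7 and 201.6 RPKM in WT, a difference that was not called (1.01, adjusted p = 0.095). The groups did not overlap in either assay, and of 49 genes of the environmental stress response 3 rose (HSP12, YGP1 and SPI1) and 3 fell, where 22.4% of all genes rose and 6.2% fell. After centring 1 rose and 4 fell (6.44% and 13.7% of all genes), and YGP1 and SPI1 were not called. The HSP12 mRNA call held in 3 of 4 fits with a library left out (adjusted p up to 0.082). AAD6, a putative aryl-alcohol dehydrogenase, rose in footprints by 1.18 and in mRNA by 0.68. Among oxidative defence genes the footprints of OYE3, an NADPH oxidoreductase, were 24.3 and 17.5 RPKM in E85Q and 11.8 and 10.9 RPKM in WT (0.81). GRX4, a glutaredoxin that takes part in the control of Aft1, had footprints of 32.2 and 29.7 RPKM in E85Q and 16.2 and 18.8 RPKM in WT (0.79). YMR090W, of unknown function, rose in both assays, by 1.11 and 1.05, and TIP1, a wall mannoprotein, rose in footprints by 0.66.

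Several of the largest mRNA rises were not called in footprints. VPS24, of the ESCRT-III complex, had mRNA of 10.7 and 7.49 RPKM in E85Q and 6.14 and 2.56 RPKM in WT (0.98), and footprints of 34.5 and 29.9 RPKM in E85Q and 30.7 and 33.8 RPKM in WT (-0.01). TOA1, a subunit of the transcription factor TFIIA, had mRNA of 46.3 and 43.2 RPKM in E85Q and 30.9 and 19.4 RPKM in WT (0.84), and a footprint difference of 0.14. At VPS24 and TOA1 the WT 600 library lay below WT 172 in mRNA, and the footprint groups overlapped for VPS24. MPP6, a cofactor of the nuclear exosome, had 0.93 in mRNA and 0.43 in footprints (adjusted p = 0.067), and ADF1, a repressor gene whose annotation overlaps another, had 0.95 and 0.61 (adjusted p = 0.054). YPR145C-A, of unknown function, rose in both, by 1.34 and 0.63. COS1, a member of a subtelomeric gene family, was listed at 10.9 and 12.2 RPKM of mRNA in E85Q and at 0 in both WT libraries; its reads may belong to other copies, and no fold is given.

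Some genes of mating were among those that rose. FUS1, needed for cell fusion, had mRNA of 7.11 and 8.23 RPKM in E85Q and 3.52 and 3.58 RPKM in WT (0.93, SE 0.12, adjusted p = 0.0023), and footprints of 7.53 and 8.23 RPKM in E85Q and 3.17 and 3.62 RPKM in WT (1.02, adjusted p = 0.00092). MFA1, the a-factor precursor, had mRNA of 145.2 and 158.8 RPKM in E85Q and 93.5 and 76.8 RPKM in WT (0.83), and footprints of 573.8 and 593.7 RPKM in E85Q and 279.1 and 333.4 RPKM in WT (0.93). Neither gene had overlapping groups in either assay. Of 18 mating pathway genes 6 rose in mRNA (22.4% of all genes did) and 0 fell (1 at an unadjusted p below 0.05), with a relative median of 0.03. After centring 4 rose and 2 fell (6.44% and 13.7% of all genes). In footprints 4 rose and 1, PRM5 (-0.44), fell (4.07% and 3.54% of all genes), with a relative median of 0.07. After centring 2 rose and 1 fell in footprints (2.03% and 4.6% of all genes). The MFA1 mRNA call held in 2 of 4 fits with a library left out (adjusted p up to 0.065), and that of FUS1 in all 4. All 5 a-cell genes and all 5 haploid genes reached the level tested. In mRNA 3 and 4 of them rose (22.4% of all genes did), 1 and 4 after centring (6.44%). None of the 4 alpha-cell genes reached the level tested; STE3, for example, had mRNA of 1.13 and 1.0 RPKM in E85Q and 1.51 and 1.25 RPKM in WT.

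The mRNA difference of a gene went with its length and level. In 5 groups of equally many genes, from the shortest (78 to 696 bases of coding sequence) to the longest (2133 to 14733 bases) the median difference was 0.165, 0.128, 0.105, 0.087 and 0.080. The slope was mostly in E85Q 623, whose median against the WT mean was 0.21 in the shortest and 0.066 in the longest genes, while E85Q 625 had 0.126 and 0.086. In footprints E85Q 623 had 0.142 and 0.014, and E85Q 625 had 0.028 and 0.061. In 5 groups from the lowest to the highest mRNA level the median mRNA difference was 0.171, 0.154, 0.129, 0.083 and 0.009. In the lowest group 26.5% of genes were called higher and 2.66% lower in mRNA. In the highest group 6.95% were called higher and 15.7% lower. The shares of all genes given beside the lists take no account of level. With the length trend removed, an alternative chosen after seeing the data, 427 genes were called higher and 543 lower in mRNA. The mRNA medians of the 16 nuclear chromosomes lay between 0.057 and 0.147 in E85Q 623 and between 0.046 and 0.111 in E85Q 625. The 14 genes of the mitochondrial genome lay apart, with mRNA medians of 0.446 in E85Q 623 and 0.366 in E85Q 625 and footprint medians of -0.292 and 0.788; the WT libraries lay 0.164 from their mean in mRNA and 0.078 in footprints.

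**Figure D5:**
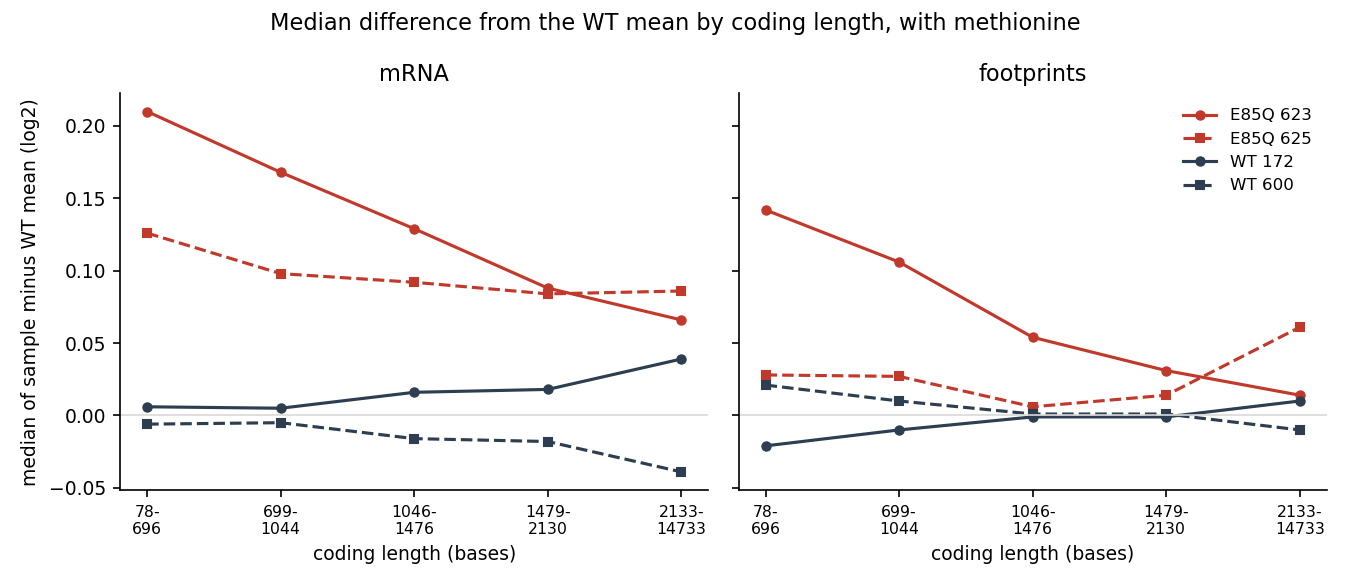
Median difference of each sample from the WT mean with methionine in 5 groups of equally many genes by coding length, for mRNA (left) and footprints (right), log2 scale. E85Q 623 falls most from short to long genes in both assays, and E85Q 625 less so in mRNA; each WT line mirrors the other by construction.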

How the data were processed

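The authors deposited RPKM tables of mRNA and of 18 to 34 nt footprints, 1 value per gene and library; per the file headers and names, positions were masked. Bowtie 1.1.2, TopHat2 2.1.1 and sacCer3 are named in the submitters' processing notes without a role. The masked positions and the reads used for scaling are not given in the sources used here. Of 7133 entries 6304 carry values, and 4888 were tested, having a mean RPKM of 5 or more in each assay; 80 of them overlap another coding gene. Reads per library were recovered from the steps between low RPKM values, taking 33 bases as masked; 69.5 to 83.6% of low values then lay within 0.05 of a whole read, and no test rests on them.

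limma 3.58.1 (R 4.3.3; eBayes with trend) was fitted to log2(RPKM + 1) of all 6 groups of an assay, 2 samples each, and to TE, and was tested on simulated data. Tests are two-sided with Benjamini-Hochberg adjustment over all genes. Tables were handled in Python 3.11.15 with pandas 2.3.3 and numpy 2.4.6, and plots drawn in matplotlib 3.10.9; gene names and positions are those of RefSeq's R64. E85Q and WT share no strain number, so samples were not paired between them; the same strain in both media was used as a block in an alternative fit (correlation 0.0555 in mRNA, 0.160 in footprints, 0.133 in TE).

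The genes compared and the gene lists were chosen with earlier results of these data known. Named are DIM1, its neighbours and GCN4, the 10 largest rises and falls among called genes with non-overlapping groups in each measure, and of each list at most the 4 largest called changes in each direction. Starved and D87E samples enter the fit and are given beside the others only. Values of 1 gene that enters the counts of its lists are not reported here.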

Additional observations from a re-analysis of the deposited data

Results flagged for a closer look

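The E85Q minus WT difference with methionine was tested against the same difference after 2 h without sulfur (interaction contrast in limma, adjusted p below 0.05). It differed at 2954 genes in mRNA (60.4%), 2025 in footprints (41.4%) and 1069 in TE (21.9%). Values below are the difference with methionine minus that without.

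Some differences turned round. RPS9A gave -3.57 in mRNA: it was lower in E85Q with methionine (-1.69) and higher without, at 62.9 and 70.3 RPKM in E85Q and 18.4 and 16.3 RPKM in WT (1.88). RPS22B gave -2.99, with 114.7 and 103.1 RPKM in E85Q and 40.2 and 36.3 RPKM in WT without methionine (1.48). ARG1 gave -1.57, with 673.9 and 828.6 RPKM in E85Q and 553.2 and 430.6 RPKM in WT without methionine (0.61, adjusted p = 0.031). DUR1,2 gave -1.13 in TE, since its TE was higher in E85Q without methionine (0.51).

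Others were lower in E85Q in both media and more so without methionine: ARO10 (2.26) and ARO9 (2.28) in mRNA, TIS11 (1.84) and SIT1 (2.13) in mRNA, and FIT2 (4.24) and FIT3 (3.35) in footprints. After the subtraction of starved footprints the difference with methionine was 1.04 at FIT3, which turned its direction round, and -0.28 at FIT2. The rest were called with methionine and not without. CPA1 gave 1.01 in footprints and 0.49 in TE, HSP12 1.33, FUS1 1.13 and MFA1 1.21 in mRNA, and CHA1 -0.95, NIT1 -0.90 and MAL11 -0.76 in TE.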

How the results depend on the processing

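The 1396 mRNA calls became 852 with a filter at a mean RPKM of 20, 725 with quantile scaling (302 higher, 423 lower) and 170 to 1229 with a library left out (170 without E85Q 623, 366 without WT 600, 895 without E85Q 625 and 1229 without WT 172). The share of higher calls was 78.3% as deposited, 32.0% after centring, 41.7% with quantile scaling and 44.0% of 970 calls with the length trend removed. The 372 footprint calls became 242 with the filter at 20, 684 with only the 4 samples in the fit, and 40 to 89 with a library left out. The 7 TE calls became 2 with a pseudocount of 0.1, 2 with 10, 2 with a filter at 1, 1 with no filter, 4 with quantile scaling, 1 with only the 4 samples, 2 without the trend, 15 after subtraction of starved footprints and 0 to 20 with a library left out. With the strain as replicate block the calls were 1392, 364 and 7. FIT3 turned round after the subtraction, to 1.04 in footprints and 1.51 in TE; the cause was not tested. Of 40 calls at named genes, 19 were lost without E85Q 623, 12 without E85Q 625, 5 without WT 172 and 21 without WT 600, and 0 with the block or a robust fit. The remaining alternatives left each count of calls within 1.5 times. FIT3, among the genes with the fewest reads, rested on 96 and 38 footprint reads in E85Q.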

Other observations

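Hexose transporters differed in direction. HXT3 and HXT1, low-affinity carriers, fell in mRNA, HXT3 to 348.7 and 344.3 RPKM in E85Q, against 480.9 and 506.2 RPKM in WT (-0.51, SE 0.09, limma adjusted p = 0.0059), and HXT1 by 0.47. HXT2 and HXT4, of higher affinity, rose by 0.52 and 0.36, but neither rise was called after centring (adjusted p = 0.11 and 0.1). INO1, which makes inositol phosphate, had mRNA of 32.8 and 30.7 RPKM in E85Q and 79.6 and 52.6 RPKM in WT (-1.01, SE 0.21, adjusted p = 0.0088), while INO4, an activator of INO1, had 27.5 and 26.2 RPKM in E85Q and 19.9 and 16.9 RPKM in WT (0.52, SE 0.07, adjusted p = 0.0025).

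Among 24 cyclins and G1 regulators 8 rose in mRNA (22.4% of all genes did) and 1 fell (6.2%). After centring 2 rose and 3 fell (6.44% and 13.7% of all genes). CLN3, the cyclin of early G1, had mRNA of 18.4 and 18.5 RPKM in E85Q and 23.5 and 28.2 RPKM in WT (-0.46, adjusted p = 0.0055), and FAR1, an inhibitor of the G1 cyclin kinase, had 36.4 and 38.0 RPKM in E85Q and 27.2 and 24.1 RPKM in WT (0.52, adjusted p = 0.0049). FAR1 rose in footprints too (0.34, adjusted p = 0.032), but not after centring, and CLN3 footprints were not called (-0.16, adjusted p = 0.24). Of 35 proteasome genes 18 rose in mRNA (22.4% of all genes did), 3 after centring (6.44%), with the activator RPN4 at 0.47. Of 75 mitochondrial ribosomal protein genes 31 rose (22.4% of all genes), and 9 did after centring (6.44%). In footprints 0 of either list were called in limma. There, 15 proteasome genes (42.9%) and 14 mitochondrial ribosomal protein genes (18.7%) had an unadjusted limma p below 0.05, where 25.4% of all genes did.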
